A study of Mus musculus with 24 samples.

Results

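The genes described here are 7 that differed strongly between 4 inbred strains in the cortex of control mice: *Baiap2l1*, *Fam205a2*, *Zfp605*, *D5Ertd579e*, *Myo7a*, *Gdpd3* and *Esco1*. They were chosen by their differences among the arrays of mice given phosphate-buffered saline (PBS), where they took places 4 to 13 among 22180 genes by p-value, and each gene was read from its probe set (the group of short DNA probes that reports 1 transcript) of highest mean signal. In all, 14 of the 41034 probe sets on the array named 1 of these genes alone. Because the PBS arrays chose the genes, their PBS levels are given as a description with no test, and the strain differences were tested on the 12 arrays of mice given the other agent. The strain means of those 12 arrays took no part in the choice of genes. Their spread did take part, because that choice came from a fit of all 24 arrays. Levels on those 12 arrays also entered the choice of probe set, which went by the mean over all 24.

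The study models neuronopathic Gaucher disease with conduritol B-epoxide (CBE), an inhibitor of the lysosomal enzyme glucocerebrosidase. Male mice of the strains SV129, FVB, C57 (C57BL/6JOlaHsd) and C3H received CBE at 25 mg/kg per day or PBS by intraperitoneal injection between postnatal days 8 and 18, and RNA was taken at 18 days from a brain section holding the cortex. Crossing the 4 strains with the 2 agents gave 8 groups of 3 arrays. CBE gave the disease model in each strain and PBS its healthy control. The labels give SV129, FVB and C3H no substrain. The replicates are separate samples by their titles, and p-values measure the spread between these samples.

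Inbred strains carry different versions of the regulatory sequence around a gene, and some carry extra or missing copies of it, so a gene can have a steady and strain-specific RNA level. On an array, a strain variant that lies under a probe weakens binding of the labelled RNA and lowers the signal without any change of RNA level, and a second probe set of the same gene, made of other probes, is the usual check. In bulk tissue, fewer cells of a type and less RNA per cell cannot be told apart.

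Array medians lay between 4.14 and 4.22 on the log2 scale, and arrays of 1 group correlated at 0.989 to 0.993 across genes. The 8 excitatory neuron markers measured had a median level of 8.38, from 4.04 for *Emx1* to 11.22 for *Slc17a7*, the vesicular glutamate transporter of cortical neurons. The 6 choroid plexus and ependyma markers had a median of 3.74, from 3.52 to 5.22 for *Ttr*. Of 47 marker genes of 9 cell types and regions, 4 passed the strain F-test in the CBE arrays, a share close to that of all genes (8.96%): *Gfap* of astrocytes, *Tek* of endothelium, *Drd1* of striatum and *Slc17a6* of thalamus. The mean log2 level of the oligodendrocyte list, of which none of the 4 measured genes passed in the CBE arrays and *Mog* and *Mag* passed in the PBS arrays (limma adjusted p = 0.014 and 0.0217), lay at 7.71 to 8.89 in C3H and 8.93 to 9.62 in FVB. In the PBS arrays, 10.0% of all genes passed. The other markers passing there were *Ntng1*, *Calb2* and *Slc17a6* of thalamus, *Fezf2* of excitatory neurons and *Drd1* of striatum (limma adjusted p = 0.0015, 0.014, 0.0205, 0.0052 and 0.035). The part of these markers in the strain differences below was not tested. *Xist*, the RNA of the inactive X chromosome, stayed between 3.17 and 3.48 on all 24 arrays. *Mmrn1*, deleted in C57BL/6JOlaHsd, lay between 3.44 and 3.76 in every strain and checks no label.

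Sequences are shown for 2 purposes. The first is to show how alike the copies of *Fam205a2* are. RefSeq (GRCm38.p6) lists several copies of this gene in a duplicated stretch of chromosome 4, and the windows around the starts of the copies *Fam205a2* (chr4:42528188-42528487, minus strand) and *Fam205a1* (chr4:42853839-42854138, minus strand) run from 250 bases before the start to 50 after it. RefSeq gives *Fam205a2* another start window (chr4:42537529-42537828), and the one shown was picked because it aligned better to that of *Fam205a1*. Over 286 aligned bases of the picked window, 284 were identical (99.3%). The differences were G130A and G199A, with the *Fam205a2* base first and positions counted from the 5′ end of the window, and 14 bases present only in the *Fam205a2* window. Capitals mark these differences.
Fam205a2: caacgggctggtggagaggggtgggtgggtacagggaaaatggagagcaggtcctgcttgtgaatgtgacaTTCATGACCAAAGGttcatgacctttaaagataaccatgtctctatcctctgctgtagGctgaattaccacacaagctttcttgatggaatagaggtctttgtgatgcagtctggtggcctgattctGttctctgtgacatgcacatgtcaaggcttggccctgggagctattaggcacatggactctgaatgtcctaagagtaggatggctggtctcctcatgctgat
Fam205a1: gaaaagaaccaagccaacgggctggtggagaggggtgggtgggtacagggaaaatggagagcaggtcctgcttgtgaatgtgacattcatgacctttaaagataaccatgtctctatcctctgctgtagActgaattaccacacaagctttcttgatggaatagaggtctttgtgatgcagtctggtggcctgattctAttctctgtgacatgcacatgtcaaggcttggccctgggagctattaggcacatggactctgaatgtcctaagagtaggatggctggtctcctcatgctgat

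The second is to show the reference starts of 4 members for which the array held 1 probe set. They are the windows of *Baiap2l1* (chr5:144358063-144358362, minus strand), *Zfp605* (chr5:110109842-110110141, plus strand), *Myo7a* (chr7:98119444-98119743, minus strand) and *Gdpd3* (chr7:126766164-126766463, plus strand), from RefSeq (GRCm38.p6). Capitals mark matches on either strand to 3 common promoter letters: the TATA box (TATAAA, in 13.6% of 32851 windows), the CCAAT box (CCAAT, 37.4%) and the GC box (GGGCGG, 35.7%). *Baiap2l1* had 1 CCAAT and 6 GC box matches and the *Myo7a* window shown had 2 GC box matches, and overlapping matches share their capitals. RefSeq gives a second start window for *Myo7a* (chr7:98109199-98109498), which had 0 matches. *Zfp605* and *Gdpd3* had no match, which says only that these letters are not in the window. *Baiap2l1* held 25 CpG pairs, a number reached by 18.4% of windows, and the other 3 held 6 or 7. A match is a description of the letters and not a binding site.
Baiap2l1: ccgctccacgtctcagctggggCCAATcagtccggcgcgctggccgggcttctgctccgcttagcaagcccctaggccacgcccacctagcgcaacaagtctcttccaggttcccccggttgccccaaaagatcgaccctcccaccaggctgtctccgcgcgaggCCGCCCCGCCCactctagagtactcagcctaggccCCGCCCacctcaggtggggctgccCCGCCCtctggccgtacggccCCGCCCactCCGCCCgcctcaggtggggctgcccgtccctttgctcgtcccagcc
Zfp605: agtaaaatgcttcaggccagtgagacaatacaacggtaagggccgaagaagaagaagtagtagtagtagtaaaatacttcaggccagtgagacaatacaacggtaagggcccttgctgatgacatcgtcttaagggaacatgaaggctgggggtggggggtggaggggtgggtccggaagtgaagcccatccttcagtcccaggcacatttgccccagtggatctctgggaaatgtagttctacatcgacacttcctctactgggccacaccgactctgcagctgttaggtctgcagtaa
Myo7a: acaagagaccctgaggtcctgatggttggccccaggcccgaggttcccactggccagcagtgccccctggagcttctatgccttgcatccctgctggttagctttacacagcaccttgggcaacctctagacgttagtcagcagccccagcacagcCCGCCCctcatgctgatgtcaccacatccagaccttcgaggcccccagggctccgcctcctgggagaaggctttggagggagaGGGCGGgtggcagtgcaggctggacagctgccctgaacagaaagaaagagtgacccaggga
Gdpd3: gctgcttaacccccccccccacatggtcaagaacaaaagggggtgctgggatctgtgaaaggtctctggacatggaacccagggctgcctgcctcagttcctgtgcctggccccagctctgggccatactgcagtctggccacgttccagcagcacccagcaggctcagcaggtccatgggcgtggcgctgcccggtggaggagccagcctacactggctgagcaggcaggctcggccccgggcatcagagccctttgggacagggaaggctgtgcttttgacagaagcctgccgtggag

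All 7 genes split the strains in the CBE arrays as they had in the PBS arrays. For each gene the strains fell into a high and a low set whose arrays did not overlap, and the set was the same under both agents in 7 of 7 genes, against 5.16% of all genes. The PBS side of this count was fixed by the choice of genes. The 5.16%, and the 11.5% for order below, cover genes not chosen this way and are not a like comparison. For *D5Ertd579e* the choice of probe set also took up part of the split. The full order of the 4 strain means was kept by 2 of 7, *Zfp605* and *D5Ertd579e*, against 11.5% of all genes. Over the 42 strain pairs of the 7 genes, 37 kept their sign. The other 5, 1 in each remaining gene, were pairs that did not pass the test in the CBE arrays.

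**Figure D1:**
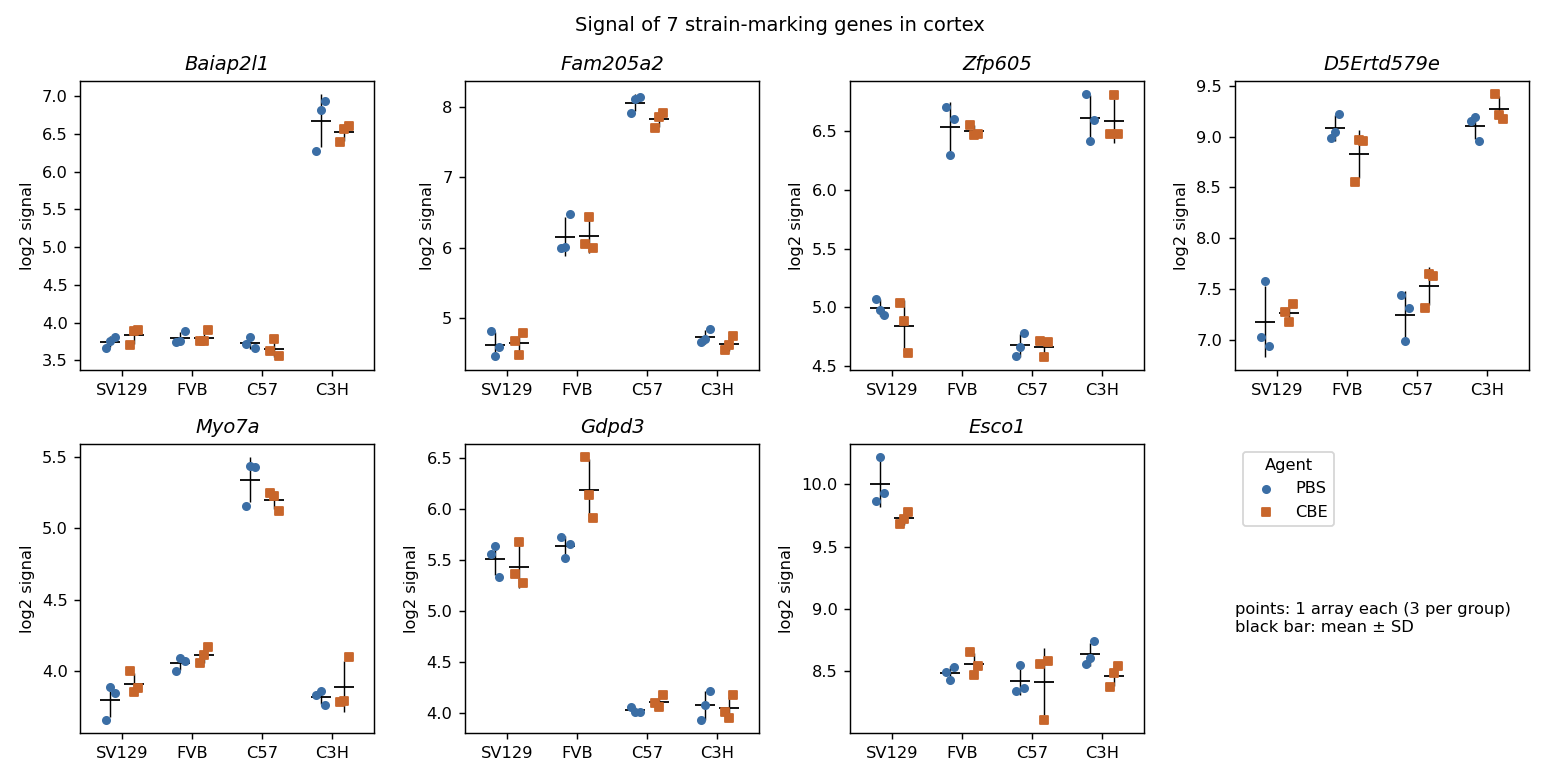
Log2 signal of the 7 genes on each array, with 1 panel per gene, the 4 strains on the horizontal axis, PBS as blue circles, CBE as orange squares, and a black bar for the mean ± SD of 3 arrays. In each panel the high strains stand clear of the low ones under both agents, as for *Baiap2l1*, where the 6 C3H arrays lie at 6.28 to 6.94 and the other 18 at 3.56 to 3.90.

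The choice of genes favours the p-values and ranks that follow, since a small spread over all 24 arrays, these 12 included, helped a gene to be chosen. In the limma F-test of the 4 CBE groups all 7 genes passed at an adjusted p of 0.05, where 8.96% of all genes passed. *D5Ertd579e* counts here through probe set 17302138, whose choice as the brightest took up part of the strain pattern tested. Its next probe set, 17447487, did not pass (range 0.19, limma adjusted p = 0.543 over all probe sets). The highest and lowest strain means were apart by 1.31 to 3.19 for the 7 genes, by a median of 0.19 over all genes, and by 1 or more in 362 genes. With all genes ranked by this test, the 7 genes took places 4 to 44. An exact permutation test over the 15400 arrangements of the 12 CBE arrays gave p between 0.00013 and 0.013 for the 7 genes, against a smallest possible p of 6.5e-05. Of the 42 tests of strain pairs 27 passed, where 3.69% of all gene and pair combinations did. The 27 include 4 of *D5Ertd579e*, for which the next probe set passed 0 of 6. By pair, the members passing were 5 for FVB against SV129 (background 2.32%), 4 for C57 against SV129 (6.27%), 5 for C3H against SV129 (1.45%), 5 for C57 against FVB (5.79%), 3 for C3H against FVB (1.76%) and 5 for C3H against C57 (4.58%).

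*Baiap2l1* encodes an I-BAR domain protein that links the curved cell membrane to actin, and it marked C3H. The 3 C3H PBS arrays read 6.28, 6.82 and 6.94, the SV129 arrays 3.67, 3.76 and 3.81, the FVB arrays 3.74, 3.76 and 3.89, and the C57 arrays 3.72, 3.81 and 3.66. After CBE the C3H arrays read 6.39, 6.56 and 6.61. The SV129 CBE arrays read 3.70, 3.89 and 3.90, the FVB CBE arrays 3.75, 3.75 and 3.90, and the C57 CBE arrays 3.62, 3.78 and 3.56. C3H was alone and high under both agents, 2.39 above the nearest other array with PBS and 2.49 with CBE, and the other 3 strains overlapped one another below the median of all values, 4.18. In the CBE arrays C3H exceeded C57 by 2.87 ± 0.09 (SE, n = 3 and 3; limma adjusted p = 1.1e-09). No fold is given, since the low strains may not be above background. Among SV129, FVB and C57 no pair passed, and the interval for C57 minus SV129 ran from -0.37 to 0.02.

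*Fam205a2*, a little-characterised gene, had 3 levels. C57 was highest with PBS at 7.92, 8.12 and 8.14, FVB was intermediate at 6.00, 6.01 and 6.48, and SV129 (4.82, 4.47 and 4.59) and C3H (4.66, 4.71 and 4.84) were low and overlapped. With CBE the C57 arrays read 7.70, 7.86 and 7.92 and the FVB arrays 6.06, 6.44 and 6.00. The low strains read 4.68, 4.48 and 4.79 in SV129 and 4.55, 4.62 and 4.75 in C3H. The 3 levels were the same ones under both agents, and no array of 1 level reached another. C57 exceeded FVB by 1.66 ± 0.12 (SE, n = 3 and 3; limma adjusted p = 1.1e-05), and FVB exceeded SV129 by 1.52 ± 0.12 (limma adjusted p = 2.1e-05). C3H and SV129 differed by -0.01, with an interval from -0.27 to 0.25, and they were the pair that changed places between the agents.

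*Zfp605*, a zinc finger protein gene on chromosome 5, was high in FVB and C3H. The PBS arrays read 6.70, 6.29 and 6.60 in FVB and 6.81, 6.41 and 6.60 in C3H, against 5.08, 4.98 and 4.94 in SV129 and 4.58, 4.66 and 4.78 in C57. The CBE arrays read 6.56, 6.46 and 6.47 in FVB, 6.48, 6.81 and 6.48 in C3H, 5.04, 4.88 and 4.61 in SV129 and 4.71, 4.58 and 4.70 in C57. FVB and C3H overlapped each other under both agents and neither overlapped the low strains. C3H exceeded C57 by 1.92 ± 0.11 with CBE (SE, n = 3 and 3; limma adjusted p = 1.2e-06). The neighbours in the order that did not pass were C3H and FVB (difference 0.09, interval -0.16 to 0.33) and C57 and SV129 (-0.18, interval -0.42 to 0.07). In the PBS arrays SV129 lay above C57 without overlap, and in the CBE arrays the lowest SV129 array, 4.61, fell among those of C57.

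*D5Ertd579e*, an uncharacterised gene whose human counterpart is KIAA0232, showed the same split as *Zfp605* on its brightest probe set. The PBS arrays read 8.98, 9.05 and 9.22 in FVB and 9.16, 9.19 and 8.95 in C3H, against 7.03, 7.58 and 6.94 in SV129 and 7.44, 6.99 and 7.31 in C57. The CBE arrays read 8.56, 8.97 and 8.96 in FVB, 9.42, 9.22 and 9.17 in C3H, 7.27, 7.18 and 7.36 in SV129 and 7.31, 7.65 and 7.63 in C57. The high and low pairs of strains were 1.37 apart at their nearest arrays with PBS and 0.91 with CBE. C3H exceeded SV129 by 2.0 ± 0.12 with CBE (SE, n = 3 and 3; limma adjusted p = 5.1e-06). Within the pairs, C3H minus FVB was 0.44 (limma adjusted p = 0.109, interval 0.17 to 0.71) and C57 minus SV129 was 0.26 (limma adjusted p = 0.274, interval -0.01 to 0.53). Over the 24 arrays the gene correlated with *Zfp605* at r = 0.945, points that share arrays and strains.

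*Myo7a* encodes the unconventional myosin of hair cells and retina whose loss causes Usher syndrome, and it marked C57. The PBS arrays read 5.16, 5.44 and 5.43 in C57, 3.66, 3.89 and 3.84 in SV129, 4.0, 4.09 and 4.07 in FVB and 3.83, 3.86 and 3.77 in C3H. The CBE arrays read 5.24, 5.22 and 5.12 in C57, 4.0, 3.85 and 3.88 in SV129, 4.06, 4.11 and 4.17 in FVB and 3.78, 3.79 and 4.10 in C3H. C57 alone lay above the median of all values, and every other array lay below it. C57 exceeded C3H by 1.31 ± 0.09 with CBE (SE, n = 3 and 3; limma adjusted p = 6.0e-06), again with no fold against signals that may be background. FVB was the next strain under both agents, and FVB minus SV129 was 0.20 (limma adjusted p = 0.321, interval 0.01 to 0.40).

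*Gdpd3* encodes a glycerophosphodiester phosphodiesterase that releases lysophosphatidic acid from lysophospholipids, and it was high in SV129 and FVB. The PBS arrays read 5.56, 5.63 and 5.34 in SV129 and 5.72, 5.52 and 5.66 in FVB, against 4.06, 4.01 and 4.01 in C57 and 3.93, 4.08 and 4.22 in C3H. The CBE arrays read 5.36, 5.67 and 5.27 in SV129, 6.51, 6.14 and 5.91 in FVB, 4.09, 4.05 and 4.17 in C57 and 4.01, 3.95 and 4.17 in C3H. The high strains overlapped with PBS and stood apart with CBE. With CBE, C3H minus FVB was -2.14 ± 0.14 (SE, n = 3 and 3; limma adjusted p = 4.1e-06). The C57 and C3H arrays, at 3.93 to 4.22, lay near the median of all values, 4.18, and may not be above background, so no fold is given. FVB exceeded SV129 by 0.75 ± 0.14 (limma adjusted p = 0.0132). That call was lost without SV129 CBE array 1 (limma adjusted p = 0.0613). C3H minus C57 was -0.06, with an interval from -0.36 to 0.24.

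*Esco1* encodes an acetyltransferase that modifies the cohesin subunit Smc3, and it marked SV129. The SV129 PBS arrays read 9.87, 10.22 and 9.93, against 8.55, 8.61 and 8.74 in C3H, 8.49, 8.43 and 8.54 in FVB and 8.34, 8.55 and 8.37 in C57. The SV129 CBE arrays read 9.68, 9.72 and 9.78, against 8.37, 8.48 and 8.54 in C3H, 8.65, 8.47 and 8.54 in FVB and 8.56, 8.11 and 8.58 in C57. SV129 was at least 1.13 above every other array with PBS and 1.03 with CBE. C57 minus SV129 was -1.31 ± 0.11 with CBE (SE, n = 3 and 3; limma adjusted p = 3.3e-05), or 2.48-fold, C3H minus SV129 was -1.26, and FVB minus SV129 was -1.17. With CBE the FVB, C57 and C3H arrays overlapped, no pair of them passed, and C3H minus C57 was 0.05, with an interval from -0.19 to 0.29.

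**Figure D2:**
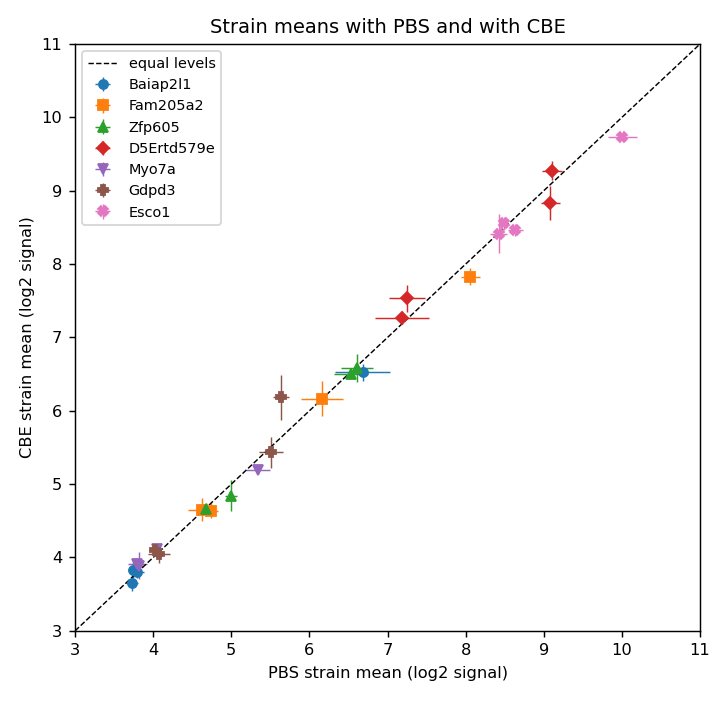
Mean log2 signal of each strain with PBS (horizontal axis) against the mean with CBE (vertical axis), 1 symbol per gene and strain, with bars of 1 SD over 3 arrays and a dashed line of equal levels. The points follow the line over the whole range, from *Baiap2l1* of C57 at 3.73 and 3.66 to *Esco1* of SV129 at 10.01 and 9.73, and *Gdpd3* of FVB (5.63 and 6.18) lies farthest above it.

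The plot of CBE against PBS means shows how far apart the strains stood under each agent. The range of the strain means with PBS and CBE was 2.95 and 2.87 for *Baiap2l1*, 3.44 and 3.19 for *Fam205a2*, and 1.93 and 1.92 for *Zfp605*. It was 1.92 and 2.0 for *D5Ertd579e*, 1.54 and 1.31 for *Myo7a*, 1.61 and 2.14 for *Gdpd3*, and 1.59 and 1.31 for *Esco1*. The PBS values are those that chose the genes.

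None of the 7 genes passed the adjusted test for a change with CBE. Averaged over the strains, 0 of 7 passed in limma, where 0.726% of all genes did, and 1 had an unadjusted p under 0.05. That gene was *Gdpd3*, at 0.13 ± 0.06 (SE, n = 12 and 12; limma adjusted p = 0.46). Within strains 0 of 28 changes passed, against a background of 0.0361% in C3H, 0.113% in SV129, 0.135% in FVB and 0.325% in C57, and 2 had an unadjusted p under 0.05. A test of whether the 4 changes were equal passed for 0 of 7, where 0.00902% of all genes passed, and 1 had an unadjusted p under 0.05. An ordinary linear model also gave 0 in each count. These contrasts share the PBS arrays that chose the genes.

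The larger of the 2 within-strain changes was *Gdpd3* in FVB. Its CBE arrays read 5.91 to 6.51 and its PBS arrays 5.52 to 5.72, a rise in the mean of 0.55 ± 0.12 (SE, n = 3 and 3) that missed the threshold (limma adjusted p = 0.106) and passed it without FVB CBE array 3 (0.69, limma adjusted p = 0.0185). The equality test for *Gdpd3* gave an unadjusted p = 0.00675 and a limma adjusted p = 0.598. The other was *Esco1* in SV129, where the CBE arrays (9.68 to 9.78) lay below the PBS arrays (9.87 to 10.22) and the difference was -0.28 ± 0.11 (SE, n = 3 and 3; limma adjusted p = 0.257). The 95% intervals of all 28 changes lay within -0.57 and 0.81.

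**Figure D3:**
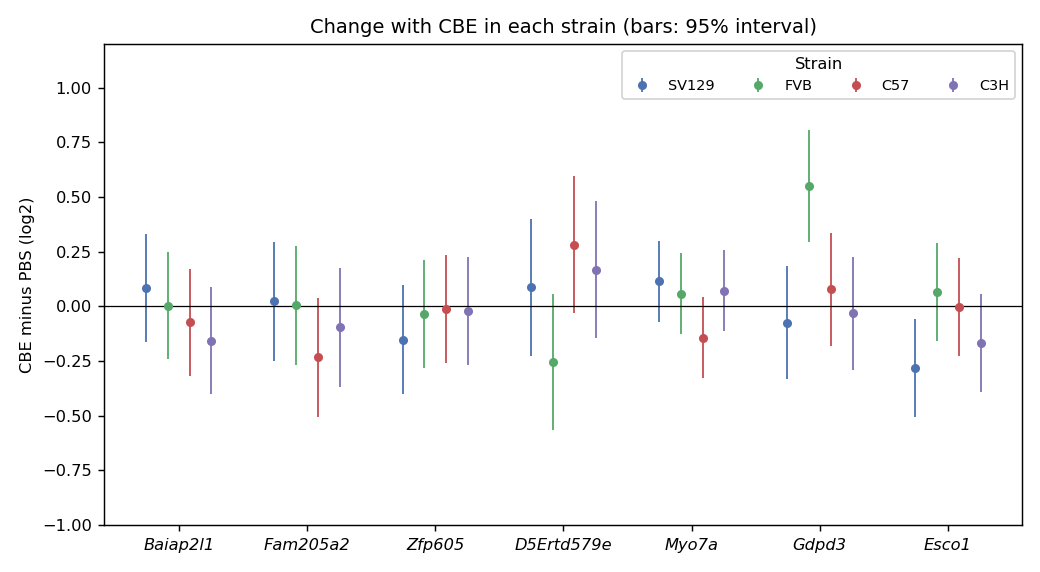
CBE minus PBS (log2, vertical axis) for each of the 7 genes and 4 strains, with 1 colour per strain and bars of the 95% interval from the fit of 24 arrays. Most intervals cross 0, and *Gdpd3* in FVB (0.55) and *Esco1* in SV129 (-0.28) lie off it, neither with an adjusted p under 0.05.

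A second probe set could be examined for 2 of the 7 genes. *Fam205a2* had 5 probe sets that formed 3 distinct readings, since 17413094 and 17424415 held identical values on all 24 arrays, as did 17412987 and 17434129. Identical values are 1 measurement, not 2. The reading of 17412987 gave 7.36, 7.38 and 7.28 in C57 PBS, 5.81, 5.77 and 5.75 in FVB PBS, and 4.57 to 4.91 in the SV129 and C3H PBS arrays. The reading of 17434251 gave 8.26, 8.50 and 8.04 in C57 PBS, 4.98, 5.08 and 5.42 in FVB PBS, and 4.22 to 4.37 in the other PBS arrays. All 3 readings put C57 highest and FVB second, without overlap, under both agents. Their CBE strain means ranged over 3.19 for 17413094, 2.69 for 17412987 and 4.02 for 17434251, and each passed the F-test run over all 41034 probe sets (limma adjusted p = 7.9e-08, 1.4e-06 and 2.8e-11; 4.88% of probe sets passed). Over the 24 arrays the readings correlated at 0.961 to 0.993. RefSeq lists 4 copies of the gene, and the best-aligned start windows of a pair of them, above, were nearly identical. The probe sequences were not used here, so which copy each reading comes from was not tested.

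*D5Ertd579e* had 4 probe sets, and 1 of them passed the CBE strain F-test over all probe sets. The brightest, 17302138, averaged 8.19 and its CBE strain means ranged over 2.0. The next, 17447487, averaged 8.15 and read 8.41, 8.36 and 8.15 in C3H with CBE, 8.09, 8.32 and 8.08 in FVB, 8.20, 8.04 and 8.18 in SV129 and 8.10, 8.11 and 8.16 in C57. These strain means ranged over 0.19 (limma adjusted p = 0.543 over all probe sets). The dimmer 17436942 and 17308794 averaged 4.62 and 4.25 and ranged over 0.39 and 0.33 (limma adjusted p = 0.14 and 0.21). Taken array by array, 17302138 minus 17447487 was 0.96 ± 0.09 in C3H, 0.67 ± 0.21 in FVB, -0.59 ± 0.17 in C57 and -0.87 ± 0.05 in SV129 (SD, n = 3 CBE arrays each). These differences are a description, computed after the values of both probe sets were seen. Chosen by its mean over all arrays, 17302138 was the brighter through FVB and C3H and the dimmer in C57 and SV129. Its choice therefore took up part of the strain pattern tested. With the mean of the 4 probe sets the range over CBE strains was 0.49 (limma adjusted p = 0.0032).

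RefSeq places *D5Ertd579e* on chromosome 5, and the probe sets numbered nearest to 17447487 and 17436942 name genes of that chromosome. Those numbered nearest to 17302138 (*Ccdc122*, *Enox1*, *Epsti1*, *Vwa8* and *Mtrf1*) name genes that RefSeq places on chromosome 14. The same holds for 17308794 (*Serp2*, *Lacc1*, *Dnajc15* and *Fam216b*), which showed a range of 0.33. So the strain pattern given for *D5Ertd579e* rests on 1 probe set whose place on the array's numbering differs from the gene's, and which transcript it reads was not tested.

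**Figure D4:**
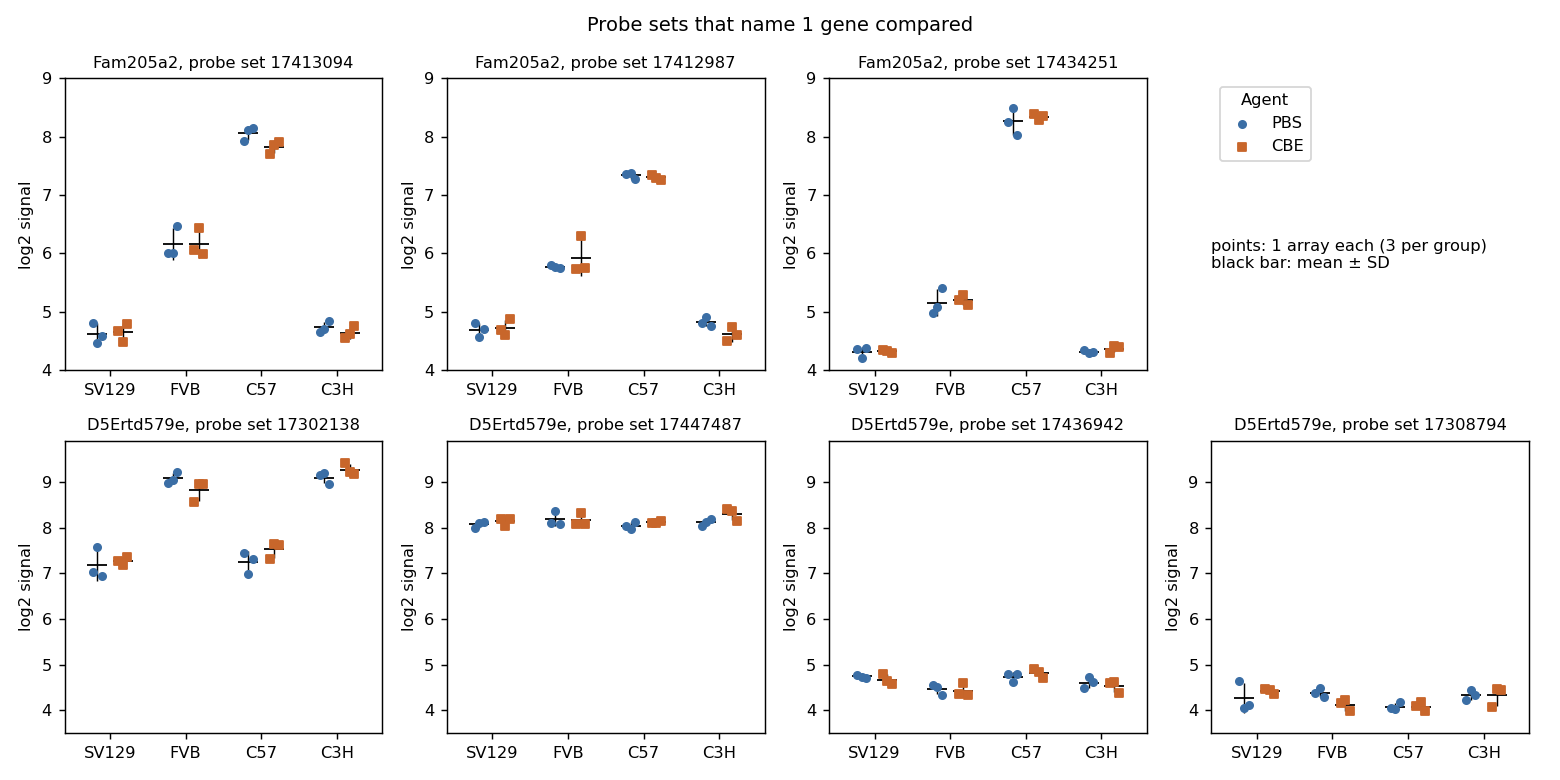
Log2 signal on each array for the distinct probe set readings of *Fam205a2* (top) and the 4 probe sets of *D5Ertd579e* (bottom), by strain, with PBS as circles, CBE as squares and bars for the mean ± SD of 3 arrays. The 3 *Fam205a2* readings repeat 1 pattern with C57 highest, whereas *D5Ertd579e* 17302138 splits the strains and 17447487 stays between 7.98 and 8.41.

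For *Baiap2l1*, *Zfp605*, *Myo7a*, *Gdpd3* and *Esco1* the array held 1 probe set each. Whether a strain variant under the probes takes part in those 5 differences was not tested. It was not tested for *Fam205a2* or *D5Ertd579e* either, since the probe sequences were not used. Whether the distinct *Fam205a2* readings come from separate probes was also not tested.

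The measured genes beside each member on its chromosome, 3 on each side in RefSeq, were examined for strain differences of their own. Of these 42 genes, 6 passed the CBE strain F-test, where 8.96% of all genes passed, and 9 passed in the PBS arrays, where 10.0% passed, with 5 in both. None of the neighbours of *Baiap2l1*, *D5Ertd579e* or *Esco1* passed with CBE. *Nptx2* near *Baiap2l1* and *Abhd3* near *Esco1* passed in the PBS arrays (limma adjusted p = 0.0092 and 0.0018). With CBE, *Abhd3* stood at 8.79 in SV129, the strain marked by *Esco1*, and at 8.39 to 8.51 elsewhere (limma adjusted p = 0.051). *Greb1l*, also near *Esco1*, was highest in C3H at 5.31 (limma adjusted p = 0.052). Next to *Fam205a2*, the predicted gene *Gm3893* had CBE strain means of 10.85 in C57, 9.48 in FVB, 4.23 in SV129 and 3.84 in C3H (range 7.01, limma adjusted p = 7.9e-13), the same high and low strains as *Fam205a2*. The chemokine gene *Ccl27a*, 1 gene farther, stood at 9.19, 6.90, 8.10 and 7.88 in that order of strains (range 2.29, limma adjusted p = 7.7e-06), with C57 highest but FVB lowest. It too lies in the duplicated stretch, and which copy its signal comes from was not tested.

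The other 4 neighbours that passed with CBE had smaller ranges and different strain orders. *Aqp11*, a water channel gene near *Myo7a*, was highest in C3H at 8.41 (range 0.90, limma adjusted p = 0.013), where *Myo7a* was highest in C57. *Sult1a1*, a sulfotransferase gene near *Gdpd3*, was highest in SV129 at 7.04 and lowest in FVB at 5.95 (range 1.10, limma adjusted p = 0.0115). *Zfp932*, near *Zfp605*, was highest in C57 at 6.91 (range 0.86, limma adjusted p = 0.044). *Gm15446*, in the same stretch, was lowest in C3H at 4.04 and FVB at 4.16 (range 0.70, limma adjusted p = 0.0027), the strains in which *Zfp605* was highest.

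**Figure D5:**
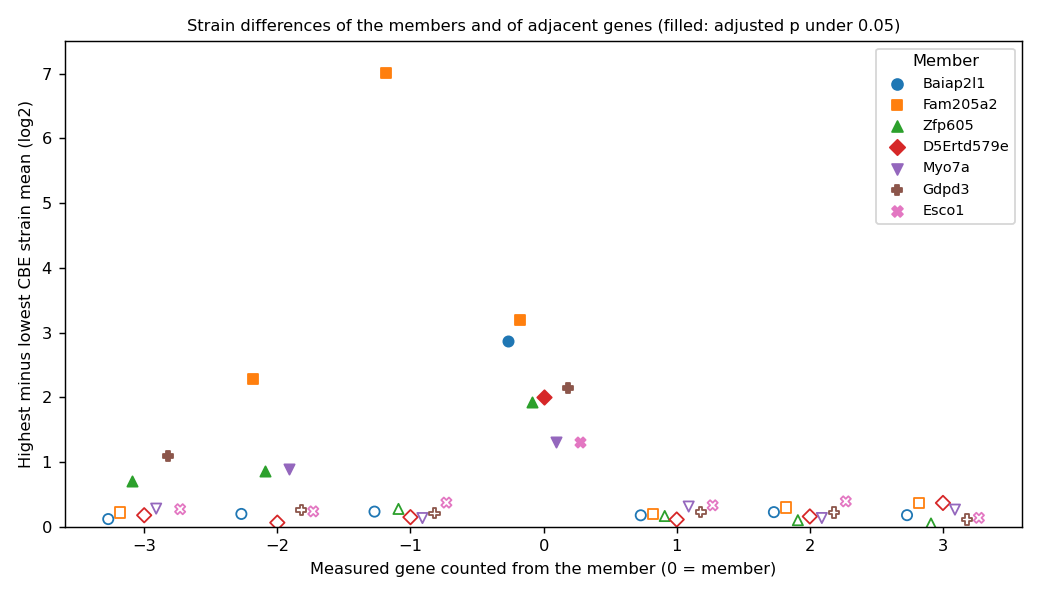
Range of the 4 CBE strain means (log2, vertical axis) for each member, at 0, and for the 3 measured genes on either side of it, counted along the chromosome, with filled symbols for an adjusted p under 0.05. The members stand at 1.31 to 3.19, most neighbours lie below 0.5, and *Gm3893* beside *Fam205a2* reaches 7.01.

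Other genes followed the same strain patterns. By Pearson correlation over the 24 arrays, which share strains and arrays, 3 genes were named for each member, leaving out the other members and predicted genes, clones and small RNAs, some of which ranked higher. For *Baiap2l1* they were *Hccs*, which attaches heme to cytochrome c (r = 0.965), *Casp9*, the initiator caspase of the mitochondrial death pathway (0.964), and *Rsph1*, a radial spoke gene of cilia (0.95). *Hccs* stood at 9.66 in C3H with CBE and 8.78 to 8.91 in the other strains. For *Fam205a2* they were *Zdhhc18*, *Decr2* and *C1qtnf12* (0.951, 0.931 and 0.913), at ranks 1, 4 and 5 among all genes. *Scg5*, a chaperone of prohormone convertase, and *Frzb*, a Wnt antagonist, were named for both *Zfp605* (0.922 and 0.919, ranks 4 and 5) and *D5Ertd579e* (0.904 and 0.893, ranks 5 and 6). *Cerk*, ceramide kinase, was the next for *Zfp605* at 0.896 (rank 6), and *Lrrc61* correlated with *D5Ertd579e* at 0.915 (rank 3), below the 0.945 of *Zfp605*.

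*Myo7a* was followed by *C1qtnf12* (0.956), *Aldh7a1*, an aldehyde dehydrogenase (0.945), and *Krt12*, the corneal keratin (0.944), which stood at 6.67 in C57 with CBE and at 4.47 to 4.66 elsewhere. *Gdpd3* had lower correlations, with *Catspere2*, *Washc2* and *Ppwd1* (0.866, 0.865 and 0.86). *Esco1* was followed by *Aox4*, an aldehyde oxidase (0.967), at 5.25 in SV129 with CBE and 3.78 to 3.85 elsewhere, and by *Ppp2r3c* (0.941) and *Filip1* (0.923). Among the members, *Fam205a2* and *Myo7a* correlated at 0.936 over the 24 arrays, both being highest in C57.

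Genes related to the members by family, by function or by place on the chromosome were taken as 6 lists. Over these lists, 65 genes were measured, 8 passed the CBE strain F-test (8.96% of all genes did), and none changed with CBE in the mean of 4 strains by the adjusted limma test. Of 12 measured genes of the *Baiap2* family and its partners, which shape membrane protrusions, 1 passed. It was the related membrane-bending gene *Mtss1* (range 0.45, limma adjusted p = 0.048), and the list's median range was 0.16. Of 14 *Myo7a* partners and Usher genes, 1 passed, *Whrn*, a scaffold of hair cell bundles (range 0.75, limma adjusted p = 0.0092), with a median range of 0.18. Of 10 phosphodiesterase and related lipid genes around *Gdpd3*, 2 passed, *Napepld* (0.89, limma adjusted p = 0.0019) and *Naaa* (0.99, limma adjusted p = 0.0032), which make and degrade N-acylethanolamines, and the median range was 0.27.

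Of 14 cohesin genes around *Esco1*, 1 passed, *Pds5b*, a regulator of cohesin on chromatin (range 0.43, limma adjusted p = 0.034), with a median of 0.14. Of 12 corepressors that zinc finger repressors recruit, 2 passed, *Chd3* (0.34, limma adjusted p = 0.0316) and *Daxx* (0.45, limma adjusted p = 0.0322), with a median of 0.22. Of the 13 listed genes in the duplicated stretch around *Fam205a2*, 3 were measured and *Ccl27a* alone passed. Over all genes the median range was 0.19.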

How the data were processed

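RNA from 24 cortex samples was labelled from 100 ng total RNA with the GeneChip WT PLUS kit, per the labels' protocols. The submitters' processing notes name Partek and RMA (a summary of probe signals per probe set), with versions, order of steps and genome build not given in the sources used here. The authors deposited 1 log2 value per probe set and array; the log base is inferred from the highest value, 14.09. No depth applies to arrays, and their number limits the precision.

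Gene symbols came from the platform annotation: 23521 probe sets had 1 symbol, 1814 several and 15699 none given. The probe set of highest mean over all 24 arrays was kept for each gene, which left 22180 genes, with no filter on dim signals. The members and the gene lists were chosen with earlier results of these data known, and that choice used the PBS arrays within a fit of all 24 arrays, so the spread of the CBE arrays took part in it.

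Tests used limma 3.58.1 in R 4.3.3 (lmFit, eBayes, two-sided) with Benjamini-Hochberg adjustment over all genes within a contrast and a threshold of 0.05. Strain differences were fitted on the 12 CBE arrays (8 residual and 4.80 prior degrees of freedom), and CBE minus PBS on all 24 (16 and 5.10). Pair differences had a median SE of 0.10. Exact permutation tests and sequence windows used Python 3.11.15 and Biopython 1.88. RefSeq start windows were taken for 6 of the 7 members. Windows of chromosome 18, which holds *Esco1*, were left out, also from the 32851 windows used for comparison. Simulated data had independent normal noise and 1 strain shifted in each changed gene. There the CBE strain F-test recovered 36 of 67 genes set apart by a log2 of 0.5, 58 of 67 at 1 and 65 of 66 at 2, with 13 false calls. Fewer genes were changed than passed in the real arrays, so recovery there may differ. Named genes were the members, the 3 most correlated genes, 3 measured neighbours on each side, and up to 4 passing genes per list, with members, predicted genes, clones and small RNAs not named among the correlated ones. Alternatives were quantile normalization, median centring, a filter on dim genes, the mean of a gene's probe sets, an ordinary linear model, a trended robust variance, the replicate number as a block, other sets of arrays in the fit and each array left out.

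The main fits did not use replicate numbers to pair the samples. After group means were removed, CBE arrays of different strains with the same number correlated at -0.14 to 0.24 (median 0.05, 18 pairs). Those with different numbers correlated at -0.26 to 0.17 (median -0.02, 36 pairs). For PBS and CBE arrays of 1 strain, the medians were 0.03 with the same number (12 pairs) and -0.03 with different numbers (24 pairs). Whether samples of 1 number share more than others was not tested.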

Additional observations from a re-analysis of the deposited data

How the results depend on the processing

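All 7 strain F-test calls on CBE arrays held with each array left out (highest limma adjusted p = 4.0e-04, *Esco1*) and under each other setting, except *D5Ertd579e* on its second probe set, an alternative chosen after seeing the data (range 0.19, limma adjusted p = 0.458, 0 of 6 pairs passing). With the mean of its probe sets, *D5Ertd579e* lost FVB against SV129 (0.26, adjusted p = 0.106) and C57 against FVB (-0.25, adjusted p = 0.081). *Gdpd3* lost FVB against SV129 in the ordinary linear model (adjusted p = 0.087). Samples shared only a replicate number; with it as a block, 2071 genes passed the strain F-test in place of 1988, and the members' calls were the same.

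Counts over all genes moved more. The ordinary linear model called 1050 genes in the strain F-test, and 211 for FVB against SV129, 875 for C57 against SV129, 168 for C3H against SV129, 795 for C57 against FVB, 203 for C3H against FVB and 616 for C3H against C57. CBE minus PBS in SV129 called 25 genes, and 14 after quantile normalization, 143 after median centring, 52 with the dim filter, 7 in the ordinary model, 39 with trend and robust variance and 4 with its own arrays. FVB called 30, and 58 with its own arrays. C57 called 72, and 36 in the ordinary model. C3H called 8, and 2 in the ordinary model, 13 with trend and 0 with its own arrays. The equality test called 2, and 6 after centring, 4 with the dim filter, 0 in the ordinary model and 1 with trend. Leaving out 1 array gave 1247 to 2039 for the strain F-test; 275 to 604, 789 to 1528, 212 to 304, 725 to 1446, 245 to 384 and 526 to 1036 for the pairs in the order above; 132 to 244 for the mean change; 7 to 219 in SV129, 25 to 85 in FVB, 30 to 136 in C57 and 3 to 52 in C3H; and 0 to 25 for equality. The cause of these shifts was not tested.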

Other observations

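Y-linked genes also differed between strains, chosen here after their values were seen. *Uty* lay at 8.39 to 8.82 on the 6 C3H arrays and 7.25 to 8.26 on the other 18 (CBE range 1.12, limma adjusted p = 0.0013). *Kdm5d* lay at 7.20 to 7.62 in C3H and 5.42 to 6.69 elsewhere (range 1.54, limma adjusted p = 0.0034). *Eif2s3y* lay at 7.74 to 8.20 in C3H and 7.03 to 7.54 elsewhere (range 0.82, limma adjusted p = 0.0043). C3H did not overlap the other strains for any of the 3.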
